A study of Homo sapiens with 26 samples.

Results

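The genes described here encode the protein subunits of the 5 oxidative phosphorylation complexes. They were chosen by symbol: those beginning with NDUFA (but not NDUFAF, the complex I assembly factors), NDUFB, NDUFC, NDUFS or NDUFV for complex I, SDHA to SDHD for complex II, UQCR and CYC1 for complex III, COX4 to COX8 for complex IV, ATP5 for complex V, and the protein genes of the mitochondrial genome (MT-ND, MT-CYB, MT-CO and MT-ATP). NDUFA4 and NDUFA4L2 were counted in complex IV. Of 306 symbols that matched these beginnings, 192 pseudogenes, 6 antisense or divergent RNAs, 4 assembly factors (SDHAF1 to SDHAF4) and 2 readthrough genes were removed. This left 102 genes among 62703 identifiers in the tables of Panc10.05 and BxPC3 and 62754 in that of ASPC1. Of these, 89 are nuclear (37 in complex I, 4 in complex II, 10 in complex III, 19 in complex IV and 19 in complex V) and 13 are mitochondrial (7 in complex I, 1 in complex III, 3 in complex IV and 2 in complex V). The rule reads symbols only.

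The 26 RNA-seq libraries come from 3 established lines of human pancreatic ductal adenocarcinoma, in which HNF4A, the gene of the transcription factor HNF4α, had been induced or targeted by CRISPR interference. Panc10.05 and BxPC3 carried a doxycycline-inducible isoform of HNF4α, named P1-a2 or P2-a8 after the promoter it starts from, and the titles call their control cells (NC) GFP for Panc10.05 and EV for BxPC3. Every induced group and both NC groups had 2 libraries, and the NC cells received doxycycline too. Each BxPC3 group received 500 ng/mL. Panc10.05 cells received 25 ng/mL in the NC and P1-a2 groups but 12.5 ng/mL in the P2-a8 group, so isoform and dose cannot be told apart in that line. In ASPC1 (AsPC-1), CRISPR interference was directed at the P1 form (guides sgP1E and sgP1J), the P2 form (sgP2D and sgP2G) or both (sgDual2 and sgDual3), with 2 libraries a guide and 2 libraries of the control guide sgNC. Each line was a separate sequencing project, so line and project cannot be told apart. No label says that replicate libraries came from separate cultures, so p-values measure only the spread between these libraries, which may be technical.

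Complexes I, III and IV pass electrons from NADH to oxygen and pump protons across the inner mitochondrial membrane, complex II feeds in electrons from succinate, and complex V (ATP synthase) uses the proton gradient to make ATP. Complexes I, III, IV and V are built from proteins of both genomes, whereas complex II is wholly nuclear. The mitochondrial genes are transcribed as long RNAs from both strands and cut into separate mRNAs, most of which carry poly(A) tails, and nuclear subunit genes are known targets of the factors NRF1 and the ETS protein GABP and of the coactivator PGC-1α.

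The smallest and largest libraries held 34618745 and 46827673 counts for Panc10.05, 26369154 and 37483772 for BxPC3, and 26079388 and 50662077 for ASPC1. In CPM, the library-scaled counts that edgeR gives, HNF4A averaged 0.149 in NC, 11.8 CPM in P1-a2 and 37.6 CPM in P2-a8 of Panc10.05, 0.771, 10.7 and 13.4 CPM in those groups of BxPC3, and 213 CPM in sgNC, 129 CPM in sgP1, 86.5 CPM in sgP2 and 7.99 CPM in sgDual of ASPC1. The rise was called by edgeR in all 4 induced groups, and the fall against sgNC was called for sgDual (-4.73, adjusted p = 6.3e-06) but not for sgP1 (-0.72, adjusted p = 0.615) or sgP2 (-1.30, adjusted p = 0.0751), although all 4 libraries of each lay below both sgNC libraries. Reads of P1 and P2 transcripts are summed in these gene counts, so the level from either promoter was not measured. All 6 epithelial markers examined were present, except that KRT7 was at 8.47 CPM or less in ASPC1. Of 9 markers of fibroblasts, immune, endothelial, liver and acinar cells, the pancreatic acinar genes PRSS1 and CPA1 had no count in any ASPC1 library, and their sum with the other 7 stayed at or below 19.5 CPM in every library of the 3 lines. In bulk RNA, fewer cells of a kind and less RNA per cell cannot be told apart.

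The mitochondrial subunit genes gave far more RNA than the nuclear ones. They took 3.89% to 4.94% of all counts in Panc10.05 libraries, 4.74% to 5.47% in BxPC3 and 6.12% to 7.16% in ASPC1, whereas the 89 nuclear genes together took 0.757% to 1.04%. Per kilobase of transcript in the control libraries, MT-CO1, the core subunit of complex IV, stood first in each line, at 8313, 9454 and 10956 CPM per kilobase in Panc10.05, BxPC3 and ASPC1. The 12 mitochondrial genes other than MT-ND6 stood above every nuclear member in all 3 lines, and ATP5F1B, the catalytic beta subunit of ATP synthase, was the highest nuclear member, at 595, 580 and 487 CPM per kilobase. MT-ND6, encoded on the opposite strand of mitochondrial DNA from the other 12, reached 97.4, 231 and 153 CPM per kilobase. Among nuclear members, 6 tissue-restricted or copy genes (COX4I2, COX6A2, COX7A1, COX7B2, COX8C and ATP5MGL) never exceeded 8 counts in a library and were tested in no line. NDUFA4L2 was also not tested in Panc10.05, nor COX6B2 in ASPC1, which leaves 82, 83 and 82 nuclear members tested in Panc10.05, BxPC3 and ASPC1, and all 13 mitochondrial members in each.

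The balance between the 2 genomes was expressed per library as the log2 of summed mitochondrial over summed nuclear member counts, a value that does not depend on library scaling. In Panc10.05 it was 2.35 and 2.34 in NC, 2.29 and 2.34 in P2-a8, and 2.18 and 2.01 in P1-a2. Both P1-a2 libraries lay below the other 4. In BxPC3 it was 2.66 and 2.69 in NC, 2.64 and 2.67 in P2-a8, and 2.51 and 2.63 in P1-a2, again with both P1-a2 libraries lowest. In ASPC1 the 4 sgDual libraries, at 3.15, 3.23, 3.10 and 3.17, lay above the other 10 libraries of that line. The sgNC libraries were at 2.79 and 2.96, the sgP2 libraries at 2.92 to 3.0005, and the sgP1 libraries split by guide, with 2.89 and 3.04 for sgP1E and 2.74 and 2.63 for sgP1J. As linear ratios, the group values were 5.08 for NC, 4.98 for P2-a8 and 4.27 for P1-a2 in Panc10.05. They were 6.402, 6.31 and 5.94 in BxPC3, and 7.35 for sgNC, 7.08 for sgP1, 7.73 for sgP2 and 8.94 for sgDual in ASPC1. The differences from control on the log2 scale were -0.25 (P1-a2) and -0.03 (P2-a8) in Panc10.05, -0.11 and -0.02 in BxPC3, and -0.05 (sgP1), 0.07 (sgP2) and 0.28 (sgDual) in ASPC1. The SDs within groups (n = 2 libraries, 4 for sgP1, sgP2 and sgDual) ran from 0.00513 in Panc10.05 NC to 0.181 in sgP1, and the ratio is given as a description without a test. With the median log2 CPM of members in place of the sums, the Panc10.05 P1-a2 difference was -0.46, the BxPC3 one -0.051 and the sgDual one 0.39, and the small P2-a8 difference of Panc10.05 and sgP2 difference changed sign (0.016 and -0.13). Without sgNC replicate 1 the sgP2 difference was -0.011 and without sgNC replicate 2 it was 0.16, and the sgDual difference was 0.20 and 0.37.

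**Figure D1:**
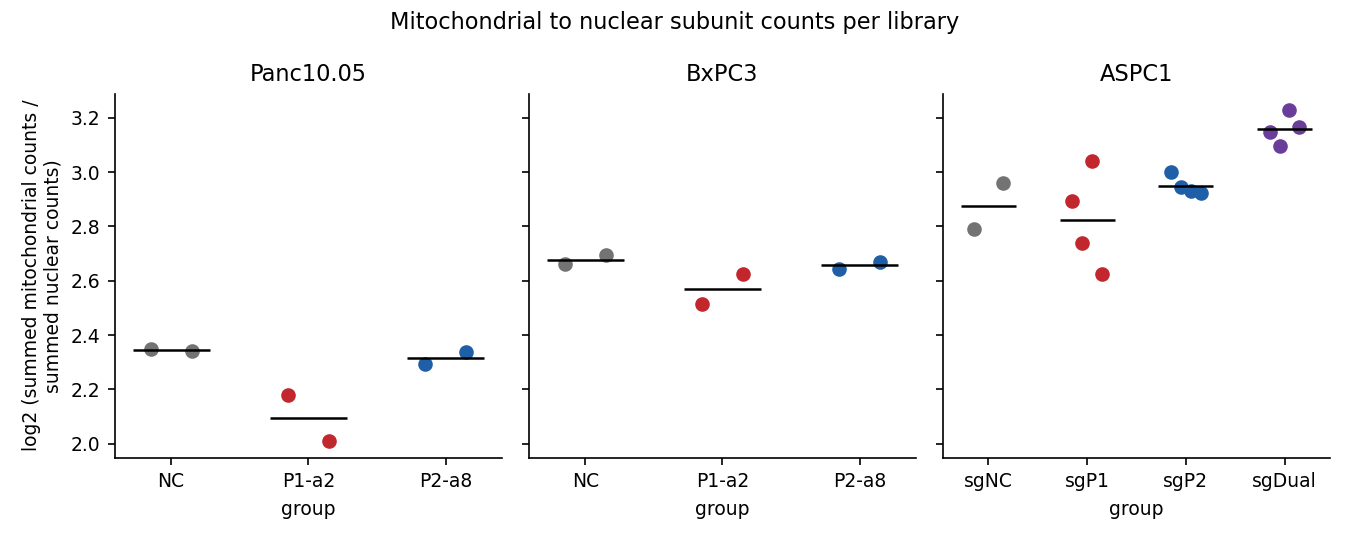
Each point is 1 library, the vertical axis is the log2 ratio of summed mitochondrial to summed nuclear member counts, the horizontal axis gives the groups of each line, and the bar is the group mean. P1-a2 is lowest in Panc10.05 and BxPC3, and the 4 sgDual libraries, from 3.10 to 3.23, are the highest in ASPC1.

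In Panc10.05 cells expressing P1-a2, the mitochondrial mRNAs moved in opposite directions by gene. Of 13, 3 rose and 9 fell at an adjusted p under 0.05 (edgeR's quasi-likelihood test, Benjamini-Hochberg adjustment over all genes), where 31.5% of all 17247 genes tested rose and 30.5% fell. Their median log2 change was -0.39, against 0.02 over all genes. MT-ND1, a core membrane subunit of complex I, was at 5825 and 5444 CPM in P1-a2, 4721 and 4779 CPM in P2-a8, and 3267 and 3362 CPM in NC. The 3 groups did not overlap, and the change against NC was 0.77 (SE 0.060, adjusted p = 1.1e-14) for P1-a2. MT-CO3, a core subunit of complex IV, ran the other way, with 2459 and 2212 CPM in P1-a2, 3365 and 3322 CPM in P2-a8, and 3628 and 4240.5 CPM in NC. All P1-a2 libraries lay below all P2-a8 libraries and these below all NC libraries, and the change for P1-a2 was -0.75 (SE 0.067, adjusted p = 3.9e-12).

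Read along the mitochondrial genome (chromosome M, GRCh38 coordinates), the changes with P1-a2 differed by gene. MT-ND1 (bases 3307 to 4262) and MT-ND2 (4470 to 5511) rose, by 0.77 and 0.22. The next 6 genes all fell: MT-CO1 (5904 to 7445) by 0.39, MT-CO2 (7586 to 8269) by 0.66, MT-ATP8 (8366 to 8572) by 0.67, MT-ATP6 (8527 to 9207) by 0.74, MT-CO3 (9207 to 9990) by 0.75 and MT-ND3 (10059 to 10404) by 0.36 on the log2 scale. MT-ND4L (10470 to 10766) was at -0.04 and not called, MT-ND4 (10760 to 12137) fell by 0.16, MT-ND5 (12337 to 14148) rose by 0.37, and MT-CYB (14747 to 15887), the only mitochondrial subunit of complex III, fell by 0.51. MT-ND6 (14149 to 14673, on the opposite strand) had the largest change, -1.19 (SE 0.27, adjusted p = 0.028), from 40.04 and 62.2 CPM in NC to 21.8 and 22.9 CPM in P1-a2. The MT-ND6 call was lost without P1-a2 replicate 1 (adjusted p = 0.145) and also without P1-a2 replicate 2, and the MT-ND4 call was lost without P1-a2 replicate 2 (adjusted p = 0.444) or NC replicate 2. Reads of MT-ATP8, MT-ATP6 and MT-CO3, and of MT-ND4L and MT-ND4, fall on overlapping stretches of the same strand, and their separation is not given in the sources used here. The mitochondrial ribosomal RNA MT-RNR1 stood at 2193 CPM in NC replicate 2 against 921 to 1262.5 CPM in the other 5 libraries. The part of that library in these results was not tested, beyond leaving it out, after which 3 mitochondrial genes were called higher and 8 lower.

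**Figure D2:**
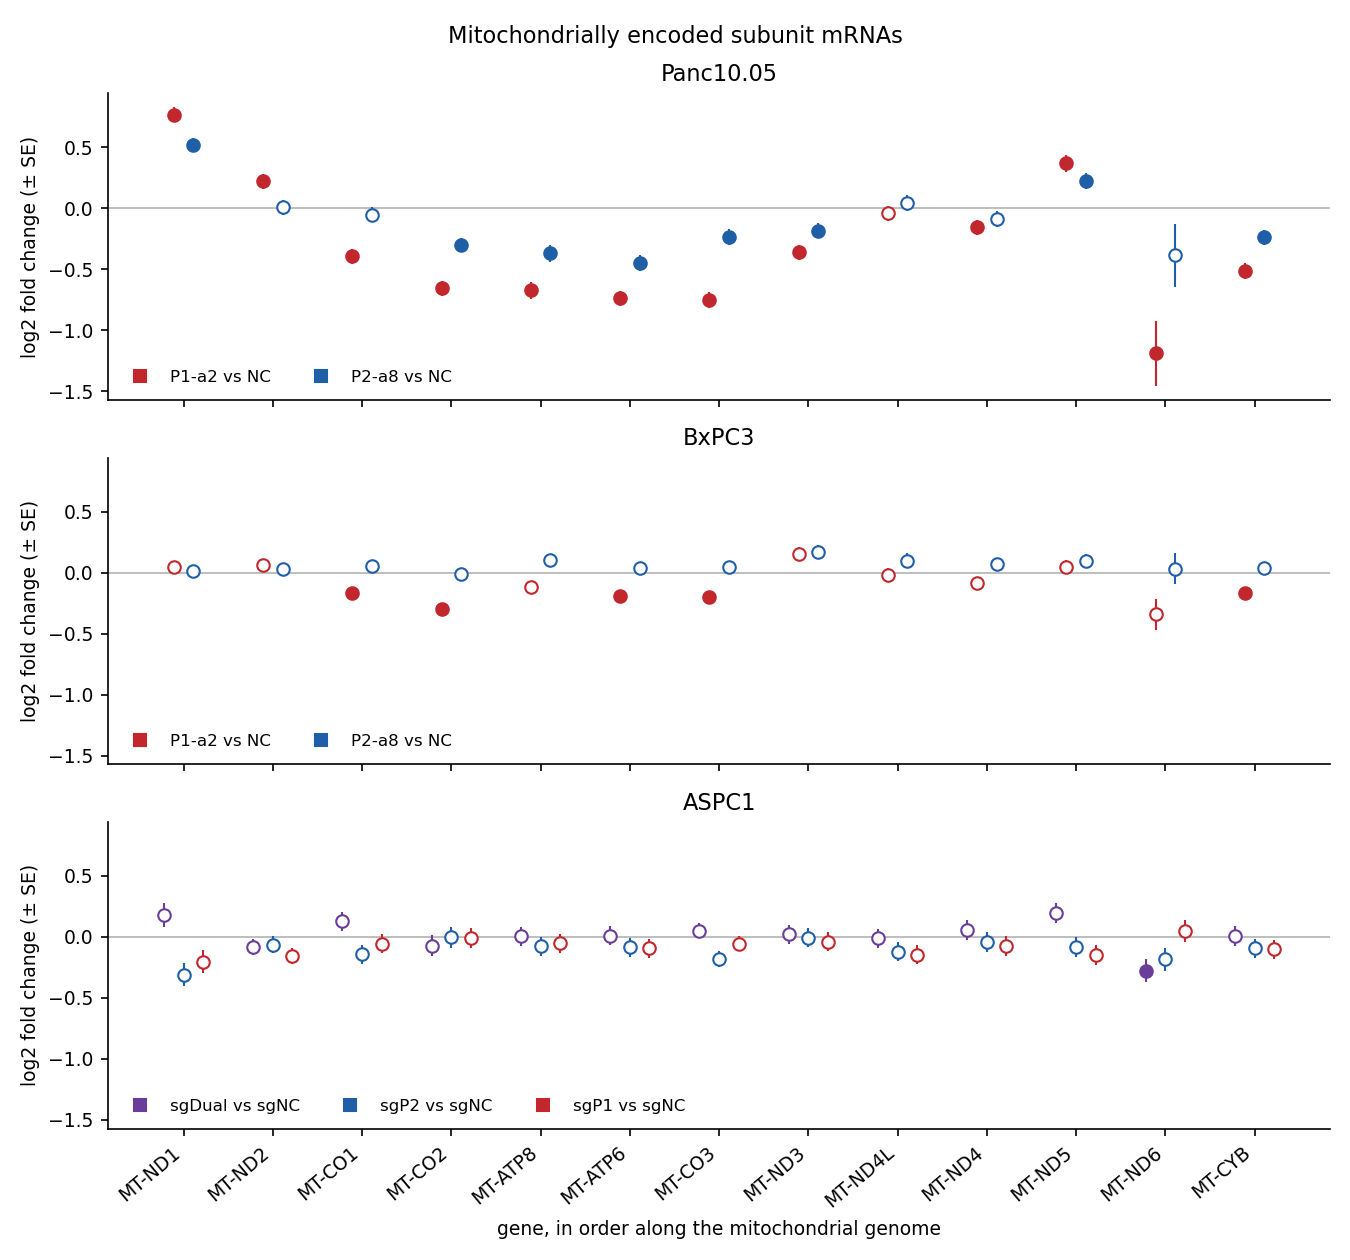
The vertical axis is the log2 fold change (± SE) against the control of the same line, and the horizontal axis lists the 13 mitochondrial genes in genome order; filled points passed an adjusted p under 0.05 and open points did not. In Panc10.05 MT-ND1, MT-ND2 and MT-ND5 are above 0 with P1-a2 while MT-CO1 to MT-CO3 fall by 0.39 to 0.75.

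The nuclear subunits moved in both directions in Panc10.05 with P1-a2, with more rises than falls. Of 82 tested, 33 rose and 20 fell, where 31.5% of all genes rose and 30.5% fell. The median log2 change of the nuclear members was 0.02, against 0.02 over all genes. By complex, 13 rose and 9 fell of 37 in complex I, 2 and 1 of 4 in complex II, 6 and 2 of 10 in complex III, 5 and 2 of 13 in complex IV, and 7 and 6 of 18 in complex V. COX4I1 (chr16:85798633-85807044, plus strand), the widely expressed form of the regulatory subunit 4 of complex IV, was at 319 CPM in both P1-a2 libraries, 242 and 236 CPM in P2-a8, and 158 and 168 CPM in NC. The groups were fully separate, and the rise over NC was 0.97 (SE 0.059, adjusted p = 4.0e-18). COX7A2L, which joins complexes III and IV in supercomplexes, was at 110 and 111 CPM in P1-a2 against 61.8 and 68.4 CPM in NC, a rise of 0.76 (SE 0.066, adjusted p = 1.6e-13). COX4I1 overlaps EMC8 on the other strand in the annotation.

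The COX4I1 promoter from RefSeq (GRCh38.p14, chr16:85799445-85799744, plus strand, 250 bases before to 50 after the start) is shown because this gene had the largest nuclear rise.
COX4I1: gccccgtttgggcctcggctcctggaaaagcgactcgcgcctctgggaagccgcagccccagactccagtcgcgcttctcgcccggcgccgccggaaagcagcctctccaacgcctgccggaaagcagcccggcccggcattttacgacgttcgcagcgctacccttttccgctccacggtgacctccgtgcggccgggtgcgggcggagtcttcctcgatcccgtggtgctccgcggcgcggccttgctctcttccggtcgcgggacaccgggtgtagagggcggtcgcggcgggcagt
None of 4 motifs searched on both strands (GCGCA and GCGC with any 1 base between for NRF1, CCGGAAGT for ETS factors, and CAAAGTCCA or AGGTCA repeated with any 1 base between for HNF4) is in this window, so no letters are in capitals.

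Of the nuclear members that fell with P1-a2 in Panc10.05, COX6B2, the testis form of complex IV subunit 6B, fell most. It was at 10.999 and 12.4 CPM in NC, 5.60 and 4.73 CPM in P2-a8, and 2.93 and 3.20 CPM in P1-a2. The 3 groups were separate, and the fall was -1.93 (SE 0.14, adjusted p = 5.7e-16). Its widely expressed partner COX6B1 was at 191 CPM in NC and 193 CPM in P1-a2 and was not called. COX6B2 shares its strand with the overlapping gene ENSG00000267706. NDUFB6, a membrane-arm accessory subunit of complex I, went from 56.8 and 58.8 CPM in NC to 39.2 and 39.8 CPM (-0.55, SE 0.070, adjusted p = 5.2e-09). NDUFA13, another accessory subunit, went from 46.4 and 57.3 CPM to 33.7 and 37.2 CPM (-0.54, SE 0.081, adjusted p = 4.3e-07), although it overlaps YJEFN3 on the same strand. The c subunit of ATP synthase, whose mature protein is the same from ATP5MC1, ATP5MC2 and ATP5MC3, showed 3 different outcomes. ATP5MC2 fell (from 120.5 to 86.6 CPM, -0.48, SE 0.063), ATP5MC3 rose (from 139 to 158 CPM, 0.19, SE 0.061), and ATP5MC1 was not called (28.4 and 27.5 CPM).

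**Figure D3:**
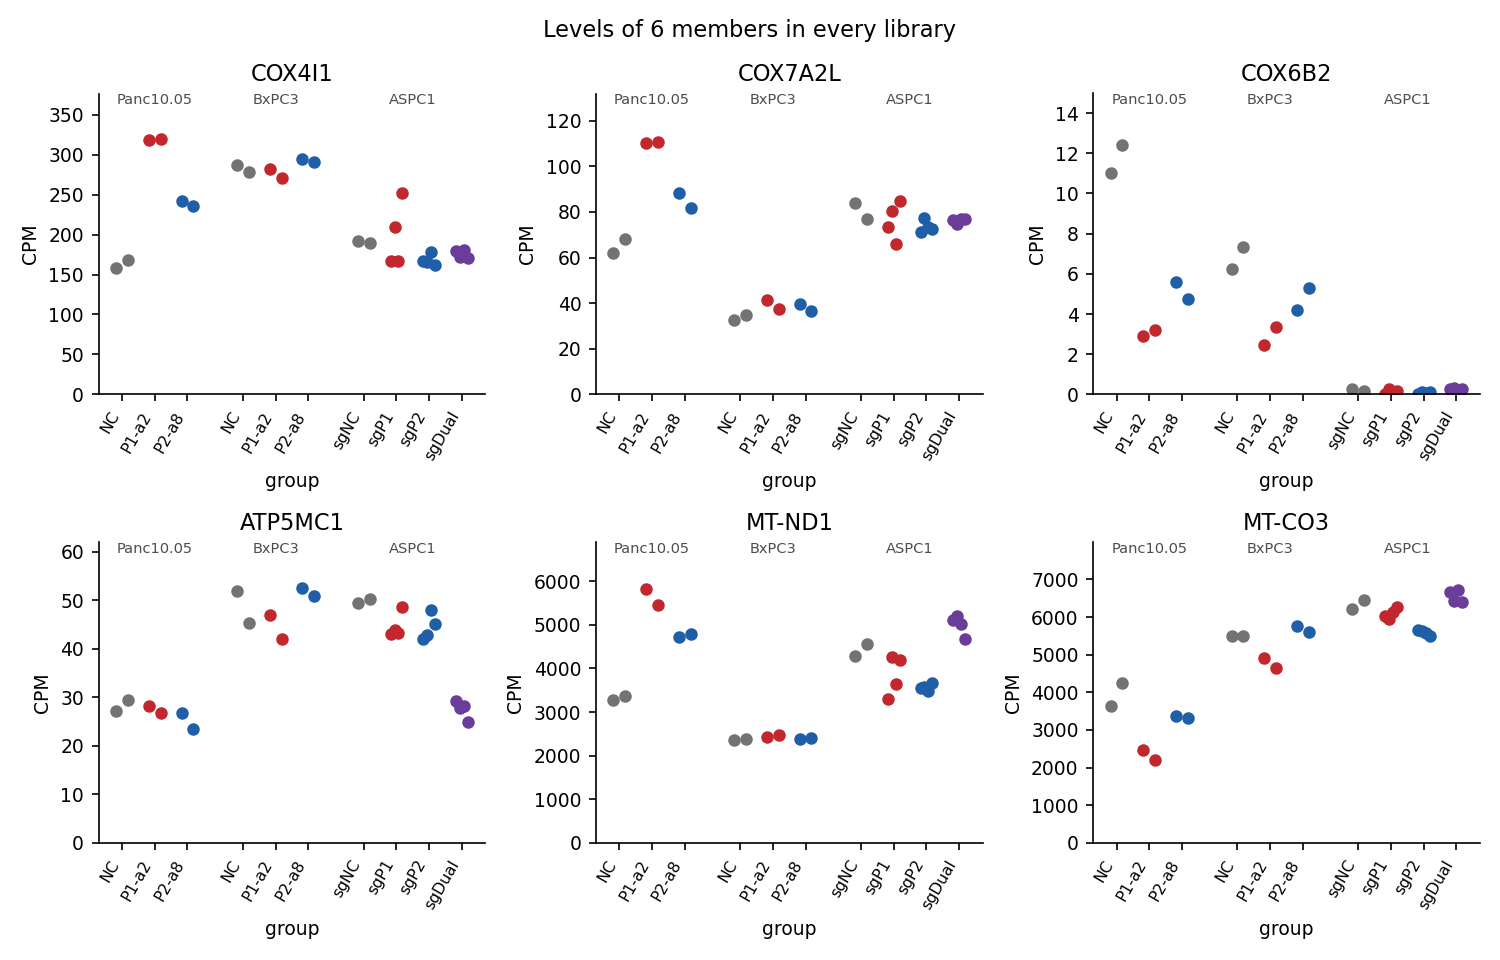
Each point is 1 library and each panel 1 gene, with CPM on the vertical axis from 0 and the groups of the 3 lines on the horizontal axis. COX4I1, COX7A2L and COX6B2 separate the groups in Panc10.05, ATP5MC1 is at 24.9 to 29.2 CPM in sgDual against 49.4 and 50.3 CPM in sgNC, and MT-ND1 and MT-CO3 move in opposite directions in Panc10.05.

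With P2-a8 in Panc10.05 the nuclear subunits fell more often than they rose. Of 82, 10 rose and 25 fell, where 23.7% of all genes rose and 22.5% fell. The falls were mostly in complex I, with 15 of 37 lower and 6 higher, while complexes III and V had 2 of 10 and 4 of 18 lower and none higher. Those that rose included COX4I1 (0.55, SE 0.059, adjusted p = 2.3e-10) and SDHC, a membrane anchor of complex II (74.0 and 77.3 CPM in NC, 102 and 99.1 CPM in P2-a8). The largest falls were COX6B2 (-1.17, SE 0.13, adjusted p = 4.1e-10), UQCRFS1, the Rieske iron-sulfur protein of complex III (161 CPM in both NC libraries, 115 and 110 CPM in P2-a8), and ATP5MF, a membrane subunit of ATP synthase (145 and 167 CPM against 115 and 105 CPM). UQCRFS1 and ATP5MF changed by -0.51 and -0.50, and neither overlapped between the groups. Of the mitochondrial genes, MT-ND1 (0.52) and MT-ND5 (0.22) rose and 6 fell, by 0.18 (MT-ND3) to 0.45 (MT-ATP6) on the log2 scale.

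Set against each other in Panc10.05, P1-a2 had the higher level for 33 nuclear members and the lower level for 5, where 22.2% of all genes were higher and 24.7% lower. Complex I, with 37 of the 89 nuclear members, held 16 of the 33, and complex V, with 19, held 7. NDUFS8, a core iron-sulfur subunit of complex I, was at 113 and 112 CPM in P1-a2 and 82.4 and 86.7 CPM in P2-a8, the latter close to NC at 79.3 and 85.1 CPM. COX4I1 differed by 0.42 (SE 0.058), NDUFS8 by 0.41 (SE 0.063) and the accessory subunit NDUFA11 by 0.39 (SE 0.072). NDUFB6 (-0.31), ATP5MC2 (-0.30) and ATP5F1B (-0.27) were lower with P1-a2, as was COX6B2 (-0.76, at a mean of 3.06 against 5.17 CPM). Of the mitochondrial genes, 2 were higher with P1-a2 (MT-ND1 by 0.25 and MT-ND2 by 0.21) and 7 lower, with MT-CO3 (-0.52) the most. The comparison with P2-a8 lacks 1 dose in common. Without P2-a8 replicate 2, which leaves 1 library in that group, fewer nuclear members and fewer of all genes were called.

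**Figure D4:**
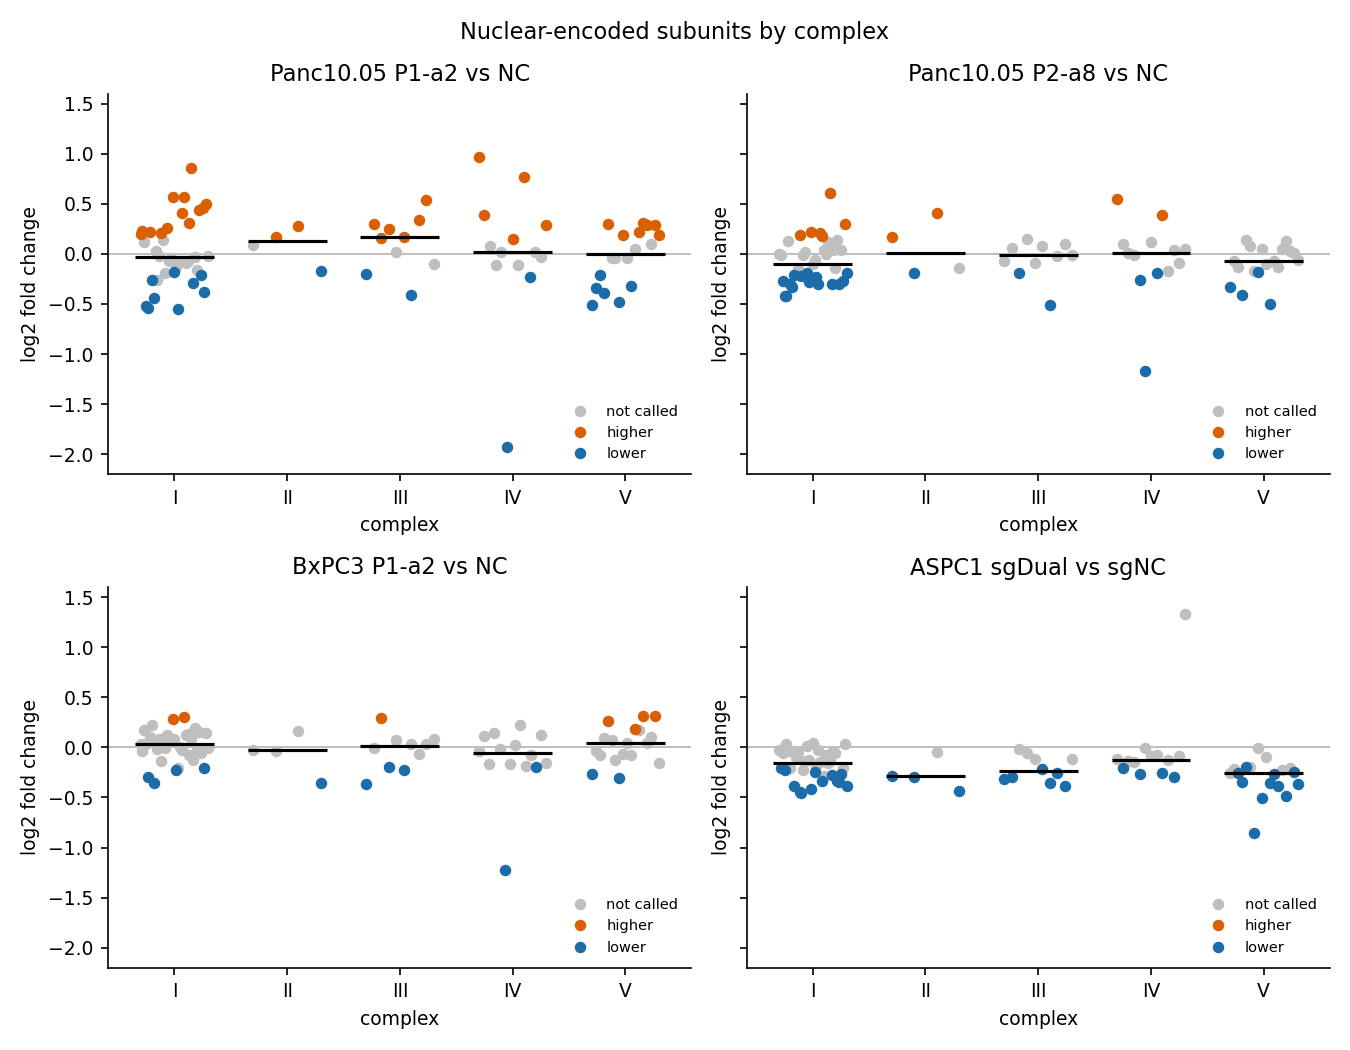
Each point is 1 nuclear member, with its log2 fold change on the vertical axis and its complex on the horizontal axis; orange and blue points passed an adjusted p under 0.05, grey points did not, and the bar is the median of the complex. Complex medians run from -0.03 to 0.16 with P1-a2 in Panc10.05 and lie below 0 in all 5 complexes with sgDual.

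BxPC3, where all groups had the same dose, showed smaller changes. With P1-a2, 7 nuclear members rose and 12 fell of 83, where 17.1% of all genes rose and 14.9% fell, and none of the 13 mitochondrial genes rose while 5 fell. MT-CO2, a core subunit of complex IV, was at 4684 and 4697 CPM in NC, 4506 and 4776 CPM in P2-a8, and 3909 and 3717 CPM in P1-a2. The P1-a2 libraries were the lowest 2 of 6, with a change of -0.30 (SE 0.048, adjusted p = 0.00067). MT-CO3 (-0.20), MT-ATP6 (-0.20), MT-CO1 (-0.17) and MT-CYB (-0.17) also fell, while MT-ND1 was at 2425 and 2477 CPM in P1-a2 and 2368 and 2382 CPM in NC, without overlap, and was not called. Of the nuclear members, CYC1, cytochrome c1 of complex III, was at 139 and 135 CPM in P1-a2 against 182 and 171 CPM in NC (-0.36, SE 0.056, adjusted p = 0.00053). SDHD, a membrane anchor of complex II, was at 88.9 and 78.0 CPM against 110 and 103 CPM (-0.35, SE 0.075, adjusted p = 0.0038). COX6B2 fell too, from a mean of 6.80 CPM in NC to 2.90 CPM in P1-a2. The accessory subunit NDUFA5 fell by 0.35 on the log2 scale, a call lost without P1-a2 replicate 2 (adjusted p = 0.131), NC replicate 1 or NC replicate 2. ATP5PF, coupling factor 6 of ATP synthase, was at 56.6 and 55.3 CPM in P1-a2 against 44.5 and 45.5 CPM in NC (0.31, SE 0.062, adjusted p = 0.0025), and ATP5MK (0.31) and NDUFB9 (0.30) also rose. Without NC replicate 1 or NC replicate 2 fewer nuclear members were called, and without NC replicate 1 fewer mitochondrial members were. Fewer of all genes were called in both fits too, each with 1 control library left.

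With P2-a8 in BxPC3, 1 nuclear member rose and none fell, where 4.3% of all genes rose and 2.69% fell. It was ATP5MG, subunit g of ATP synthase, at 78.8 and 77.5 CPM against 66.5 and 63.1 CPM in NC (0.27, SE 0.061, adjusted p = 0.022), and the call was lost in each fit that left out 1 of the 4 libraries (highest adjusted p = 0.236, without NC replicate 2) and under total count scaling. No mitochondrial member was called by edgeR without a replicate block or by DESeq2, 1 was with no filter on low counts, and 2 had an unadjusted p under 0.05. In the direct comparison at equal dose, P1-a2 was lower than P2-a8 for 14 nuclear and 7 mitochondrial members and higher for none by edgeR, where 11.6% of all genes were higher and 10.8% lower. At an unadjusted p under 0.05, 3 nuclear members and no mitochondrial member were higher. COX6B2 was among the nuclear members called lower, at a mean of 2.90 CPM in P1-a2 against 4.75 CPM in P2-a8. Among members with a mean of at least 5 CPM and separate groups, SDHD had the largest difference. It was at 88.9 and 78.0 CPM in P1-a2 and 116 and 106 CPM in P2-a8 (-0.42, SE 0.075, adjusted p = 0.0025). NDUFA5 (-0.33) and NDUFB5 (-0.29), both accessory subunits of complex I, followed. The mitochondrial falls were between -0.16 (MT-ND4, called in 5 of 11 alternatives) and -0.28 (MT-CO2). Without P2-a8 replicate 1, P1-a2 replicate 2 or P2-a8 replicate 2 fewer nuclear members were called, as were fewer of all genes. The mitochondrial count was also lower without P2-a8 replicate 1. Each of these fits has 1 library left in a group. DESeq2 called 9 nuclear members, where it called 3277 of all genes, against 3963 by edgeR.

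The calls of the 2 induced lines come from separate libraries and were compared for P1-a2 against NC. Of nuclear members, 6 rose in both (ATP5F1E, ATP5MK, ATP5PF, NDUFB3, NDUFB9 and UQCR11), which is 18.2% of those that rose in Panc10.05 and 85.7% of those in BxPC3. Over all genes, 1581 rose in both, 29.1% and 52.4% of those that rose. Another 8 fell in both (ATP5F1A, ATP5MC2, COX6B2, CYC1, NDUFA13, NDUFA5, NDUFV1 and SDHD), 40% and 66.7% of the members that fell, where 1369 of all genes fell in both (26% and 51.9%). UQCRB and UQCRC2 went in opposite directions. The 5 mitochondrial genes that fell in BxPC3 (MT-CO1, MT-CO2, MT-CO3, MT-ATP6 and MT-CYB) were among the 9 that fell in Panc10.05.

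The share of nuclear members whose response to P1-a2 differed between the lines was close to that of all genes. A test of the difference itself, the interaction of line and treatment in a fit of all 12 libraries, called 32 of 83 nuclear members (38.6%) and 9 of 13 mitochondrial members (69.2%) for P1-a2 against NC, where 36.4% of all genes were called. Of the 32, 22 were more positive in Panc10.05 (16.3% of all genes) and 10 in BxPC3 (20.1%). COX4I1 was the extreme nuclear case: it was at 287 and 279 CPM in NC and 282 and 271 CPM in P1-a2 of BxPC3, with overlapping groups, and the response was larger in Panc10.05 by 1.01 (SE 0.078, adjusted p = 5.4e-10). MT-ND1 responded more positively in Panc10.05 by 0.73 (SE 0.072, adjusted p = 2.3e-08), and MT-CO3 more negatively by -0.54 (SE 0.090, adjusted p = 4.8e-05). For P2-a8 against NC, 24 nuclear members (28.9%) and 7 mitochondrial members (53.8%) were called, where 23.5% of all genes were, and 21 of the 24 were more positive in BxPC3, as were 11.9% of all genes. For P1-a2 against P2-a8, all 26 nuclear members called were more positive in Panc10.05, where 22.3% of all genes were called and 8.81% were more positive in Panc10.05. Line, project and control construct, and for P2-a8 the dose, cannot be told apart in these differences.

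With guides against both promoters in ASPC1, many nuclear subunits fell. Against sgNC, 37 of 82 nuclear members fell and none rose by edgeR, where 17.8% of all genes rose and 17.8% fell, and 1 nuclear member was higher at an unadjusted p under 0.05. The median log2 change of the nuclear members was -0.21, against 0.00 over all genes. Falls came from every complex: 13 of 37 in complex I, 3 of 4 in complex II, 6 of 10 in complex III, 4 of 13 in complex IV and 11 of 18 in complex V. Of the mitochondrial genes 1 fell, MT-ND6, and their median was 0.01. ATP5MC1 (chr17:48892765-48895871, plus strand) was at 29.2, 28.1, 27.9 and 24.9 CPM in sgDual and 49.4 and 50.3 CPM in sgNC, with 43.2 to 48.7 CPM in sgP1 and 42.0 to 47.9 CPM in sgP2. All 4 sgDual libraries lay below the other 10, and the change against sgNC was -0.86 (SE 0.078, adjusted p = 2.3e-06). The other c subunit genes differed from it: ATP5MC3 went from 269 and 238 CPM in sgNC to 168 to 187 CPM (-0.50, SE 0.093, adjusted p = 0.00074), and ATP5MC2 was at 164 and 165 CPM in sgNC and 159 to 170 CPM in sgDual (-0.01, SE 0.13). ATP5MC1 has 8 annotated pseudogenes and ATP5MC2 has 5, and how reads shared with such copies were counted is not given in the sources used here.

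Smaller falls with sgDual were spread over several complexes. ATP5PB, subunit b of the ATP synthase stalk, was at 133 to 148 CPM in sgDual and 203 and 189 CPM in sgNC (-0.49, SE 0.092, adjusted p = 0.00087). SDHD was at 107 to 113 CPM in sgDual, 146 and 148 CPM in sgNC, 138 to 155 CPM in sgP1 and 144 to 153 CPM in sgP2. No sgDual library reached the range of the other groups, and the change was -0.43 (SE 0.062, adjusted p = 0.00011). NDUFA9, an accessory subunit of complex I at the junction of its arms, was at 21.6 to 23.3 CPM in sgDual against 32.2 and 28.7 CPM in sgNC (-0.44, SE 0.095, adjusted p = 0.0023). Of the complex IV members COX8A (-0.29), COX6B1 (-0.27) and COX7B (-0.26) fell, while COX4I1 (-0.12), NDUFA4 (-0.09) and COX7A2 (-0.09) were not called. ATP5IF1, the inhibitor protein of ATP synthase, was not called either (51.1 CPM in sgNC, 44.5 CPM in sgDual). The count of 37 depended on the 2 sgNC libraries. Without either of them it was lower, most of all without sgNC replicate 1, and fewer of all genes were called too. A fit with 1 control library left cannot settle whether the members fell more often than all genes. The nuclear count was 17 without guide sgDual2 and 16 without guide sgDual3. In those fits 4418 and 4460 of all genes were called, against 6048 with both guides. Each guide alone against sgNC gave a like picture in the fit by guide. Both comparisons share the 2 sgNC libraries, so they cannot show how far the counts depend on those libraries. With sgDual2, 36 nuclear members were lower and none higher, where 18.2% of all genes were lower. With sgDual3, 40 were lower and 1 higher, where 18.4% of all genes were lower. Without guide sgDual2, sgDual2 replicate 1, sgDual2 replicate 2 or sgNC replicate 1 the MT-ND6 call was lost (highest adjusted p = 0.251), and DESeq2 called 2 mitochondrial members.

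The comparison of sgDual with the groups whose guides target 1 promoter does not contrast them with the sgNC libraries. Against sgP1, 44 nuclear members fell and 1 rose, where 18.6% of all genes rose and 19.7% fell. Against sgP2, 23 fell and 2 rose, where 22.8% rose and 23.5% fell. ATP5MC1 was lower by -0.70 (SE 0.066) and -0.69 (SE 0.066), SDHD by -0.44 (SE 0.052) and -0.45 (SE 0.052), and NDUFA9 by -0.44 (SE 0.078) and -0.41 (SE 0.079). The 1 riser against sgP1 was NDUFA4L2, at 0.202 to 0.381 CPM in sgDual, which is a handful of counts per library. Those that rose against sgP2 included ATP5MC2 (159 to 170 CPM against 115 to 129 CPM, 0.43, SE 0.10). Of the 13 mitochondrial genes, 3 rose and 1 fell against sgP1, and 4 rose and none fell against sgP2, with none lower at an unadjusted p under 0.05. MT-ND1 was at 4679 to 5202 CPM in sgDual, 3288 to 4266 CPM in sgP1 and 3480 to 3672 CPM in sgP2, and differed by 0.38 (SE 0.078, adjusted p = 0.0014) and 0.49 (SE 0.078, adjusted p = 0.00013). All sgDual libraries lay above all of both groups. MT-ND5 (0.34 and 0.28) and MT-CO1 (0.18 and 0.27) rose in both comparisons, MT-CO3 (0.23) against sgP2, and MT-ND6 fell (-0.33) against sgP1. MT-CO2 was not called, at a mean of 5766 CPM in sgDual, 6028 CPM in sgP1 and 6062 CPM in sgP2. The MT-CO1 call against sgP1 held in 9 of 19 alternatives and was lost without guide sgDual2 (adjusted p = 0.228). Leaving out guide sgDual2 or sgDual3 brought the nuclear count against sgP1 to 29 or 25. There 4394 or 4320 of all genes were called, against 6505 with both guides. Leaving out sgDual2 brought the mitochondrial count from 4 to 2. Without guide sgP2G the nuclear count against sgP2 was 16, where 6061 of all genes were called, against 7876 with both guides. The sum of 4 RNA quality genes (MT-RNR1, MT-RNR2, MALAT1 and NEAT1) differed between groups. It was at 26434 to 28220 CPM in sgDual, 21375 to 24239 CPM in sgNC, 20190 to 27049 CPM in sgP1 and 16209 to 20489 CPM in sgP2. The sgDual range lay above sgNC and overlapped sgP1, and the sgP2 range lay below sgNC. The part of these genes in these results was not tested.

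Promoters are shown for 3 of the 37 nuclear members that fell with sgDual. These 3 had the largest falls against sgP1 and against sgP2 among members with separate groups. The promoters are RefSeq sequences of GRCh38.p14 on the plus strand, from 250 bases before to 50 after the start: ATP5MC1 at chr17:48892537-48892836, SDHD at chr11:112086623-112086922 and NDUFA9 at chr12:4648864-4649163. Capitals mark a match to the NRF1 letters or to ETS letters (CCGGAAGT, here on the other strand as ACTTCCGG).
ATP5MC1: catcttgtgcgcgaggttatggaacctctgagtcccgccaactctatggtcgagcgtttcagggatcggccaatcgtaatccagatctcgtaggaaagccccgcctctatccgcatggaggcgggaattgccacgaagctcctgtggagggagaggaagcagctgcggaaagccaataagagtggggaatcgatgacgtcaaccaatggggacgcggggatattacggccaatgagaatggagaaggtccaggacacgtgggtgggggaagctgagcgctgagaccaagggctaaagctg
SDHD: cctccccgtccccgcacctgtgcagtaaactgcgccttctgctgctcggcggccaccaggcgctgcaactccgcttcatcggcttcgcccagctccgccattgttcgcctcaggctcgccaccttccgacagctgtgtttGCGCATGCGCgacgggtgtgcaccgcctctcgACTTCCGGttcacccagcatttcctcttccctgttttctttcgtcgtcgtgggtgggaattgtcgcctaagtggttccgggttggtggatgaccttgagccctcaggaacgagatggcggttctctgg
NDUFA9: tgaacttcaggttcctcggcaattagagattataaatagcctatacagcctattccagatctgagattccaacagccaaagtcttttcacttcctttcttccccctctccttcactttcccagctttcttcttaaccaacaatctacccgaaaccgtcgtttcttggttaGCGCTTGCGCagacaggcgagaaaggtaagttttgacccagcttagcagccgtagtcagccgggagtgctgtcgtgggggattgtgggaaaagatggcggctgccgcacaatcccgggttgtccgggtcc
SDHD holds both motifs, NDUFA9 the NRF1 letters and ATP5MC1 none of those searched. ATP5PB, among the largest falls against sgNC, is not shown and also held none of them. Of the 89 nuclear members, 70 had a promoter in the table. The NRF1 letters were in 17 of them (24.3%), against 6.28% of all 27305 promoters of that length, and the ETS letters were in 10 (14.3%), against 4.44%. The HNF4 letters CAAAGTCCA were in 0 of 70 against 0.359% of all promoters, and the AGGTCA repeat in 0 against 0.022%. Of the 37 members that fell with sgDual, 30 had a promoter and 9 of these held the NRF1 letters, as did 8 of the other 40. A match is a description of these letters in this window and does not show binding.

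With guides against 1 promoter alone, few members passed the threshold when the guides of a target were taken as 1 group. Against sgNC, sgP1 had no nuclear and no mitochondrial member called by edgeR, where 0.1% of all genes rose and 0.165% fell, with 1 nuclear and 2 mitochondrial members at an unadjusted p under 0.05. DESeq2 called no member, where it called 242 of all genes. DESeq2 called 6 nuclear and 2 mitochondrial members for sgP2 against sgNC, where it called 1130 of all genes (16992 were tested by edgeR). By edgeR the sgP2 group had 1 nuclear member higher and no mitochondrial member called, where 1.66% of all genes rose and 1.76% fell. At an unadjusted p under 0.05 it had 12 nuclear members (1 higher and 11 lower) and 2 mitochondrial members (both lower). The 1 was NDUFB4, an accessory subunit of complex I, at 81.0 to 90.8 CPM in sgP2 and 66.0 and 67.7 CPM in sgNC (0.36, SE 0.082, adjusted p = 0.027), and the call was lost without either sgNC library, sgP2D replicate 1, sgP2G replicate 2 or either guide (highest adjusted p = 0.247). Between sgP2 and sgP1 no member was called by edgeR, where 2.17% of all genes rose and 2.13% fell, with 29 nuclear members lower and 2 mitochondrial members at an unadjusted p under 0.05. There DESeq2 called 5 nuclear members and 1 mitochondrial member, where it called 1270 of all genes.

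Taken guide by guide against sgNC, the same edgeR test called more members, most of them lower. With sgP1E, 1 nuclear member rose, 6 fell and 1 mitochondrial member fell, where 4.81% of all genes rose and 3.8% fell. With sgP1J no member was called, where 1.26% of all genes rose and 1.78% fell, and 12 nuclear members and 1 mitochondrial member had an unadjusted p under 0.05. With sgP2D, 1 nuclear member rose, 5 fell and 1 mitochondrial member fell (4.46% of all genes higher and 4.06% lower), and with sgP2G 1 nuclear member rose, 6 fell and 1 mitochondrial member fell (4.31% and 3.85%). NDUFB4 was the nuclear riser and MT-ND1 the mitochondrial member that fell in all 3, and these comparisons share the sgNC libraries. MT-ND1 was at 3288 and 3644 CPM in sgP1E, 3480 to 3672 CPM in sgP2D and sgP2G, and 4292 and 4555 CPM in sgNC, with changes of -0.35 (SE 0.077), -0.33 (SE 0.077) and -0.29 (SE 0.077) for sgP1E, sgP2D and sgP2G. Nuclear members that fell with each of the 3 included ATP5F1A and ATP5F1B, the alpha and beta subunits of the ATP synthase head, and SDHC. SDHC was at 43.1 and 47.6 CPM in sgP1E, 65.1 to 72.9 CPM in sgP2D and sgP2G, 82.9 and 95.6 CPM in sgP1J and 83.95 and 89.9 CPM in sgNC, and its change with sgP1E was -0.94 (SE 0.081, adjusted p = 1.3e-05).

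The guides against P1 did not give the same subunit levels. In the fit by guide, 27 nuclear members were lower in sgP1E than in sgP1J and none was higher, where 6.7% of all genes were lower and 7.82% higher, and the median nuclear difference was -0.22. COX4I1 was at 166 and 167 CPM in sgP1E and 209.7 and 252 CPM in sgP1J. Between sgP2D and sgP2G (1.69% of all genes called) and between sgDual2 and sgDual3 (0.883%) edgeR called 0 members, and each comparison had 1 nuclear and 0 mitochondrial members at an unadjusted p under 0.05. DESeq2 was not run by guide. Without guide sgP1E, 39 nuclear members and 1 mitochondrial member were called between sgP2 and sgP1, where 2764 of all genes were called. Without guide sgP1J, 1 nuclear member and 864 of all genes were called. The nuclear count was 10 or 4 without sgP1E replicate 1 or 2, where 1208 or 633 of all genes were called. With all libraries it was 731 of 16992 genes tested. Without guide sgP1J, 8 nuclear members and 1 mitochondrial member were called between sgP1 and sgNC. In that fit 1242 of all genes were called, against 45 with both guides. Values of the sgP1 group are therefore means over guides that differ.

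The genes around the respiratory chain were counted in lists by role. With sgDual against sgNC, 17.8% of all genes rose and 17.8% fell. With sgDual against sgNC, 24 of 52 assembly factors fell and none rose, with COA7 (-0.79) and NDUFAF4 (-0.74) the lowest, and 53 of 78 mitochondrial ribosomal protein genes fell and 1 rose (MRPL11 at -0.77, MRPS6 at 0.64). Of 34 genes for mitochondrial transcription, RNA processing and DNA upkeep, 19 fell and 1 rose, including the mitochondrial RNA polymerase POLRMT (69.7 CPM in sgNC, 47.5 CPM in sgDual, -0.55), the transcription and packaging factor TFAM (86.4 and 66.1 CPM, -0.39) and SLIRP, a partner of the mRNA-stabilising protein LRPPRC (38.6 and 24.8 CPM, -0.64). Among 14 regulators of mitochondrial biogenesis 5 fell and 1 rose, with NRF1 at -0.34, and among 20 electron carriers and substrate entry genes 8 fell and 3 rose, with DHODH at -0.64 and PDK4, which restrains pyruvate entry, at 1.21.

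With P1-a2 in Panc10.05 those lists held both rises and falls, where 31.5% of all genes rose and 30.5% fell. Of 52 assembly factors, 19 rose and 12 fell, with ATPAF1 (-1.62) and COA6 (1.32) at the ends, and of 78 mitochondrial ribosomal protein genes 34 rose and 16 fell. Of 34 transcription and RNA processing genes 11 rose and 5 fell. LRPPRC rose from 207 and 184 CPM in NC to 428 and 415 CPM in P1-a2 (1.11, SE 0.063), TFB2M, a mitochondrial transcription factor, from 20.3 and 19.4 CPM to 42.2 and 41.9 CPM (1.08, SE 0.079), and POLRMT from 75.8 and 72.2 CPM to 133 and 137 CPM (0.87, SE 0.063), while TFAM was not called (-0.02). Of 14 regulators 6 rose and 1 fell. ESRRA, a nuclear receptor of mitochondrial genes, was at 168 and 180 CPM against 92.9 and 86.0 CPM, and PPARGC1A, the gene of PGC-1α, at 3.21 and 3.0003 CPM against 0.456 and 0.522 CPM. Of 20 carriers and entry genes 6 rose and 7 fell. With P2-a8 in Panc10.05 the counts of genes that rose and fell were 5 and 16 for assembly factors, 6 and 8 for transcription and processing, 5 and 2 for regulators, 5 and 5 for carriers and 12 and 31 for ribosomal proteins. With P1-a2 in BxPC3 they were 7 and 6, 5 and 2, 2 and 3 of 13, 6 and 1, and 13 and 1. There LRPPRC was at 209 and 202 CPM against 212 and 210 CPM in NC and was not called, while POLRMT (0.40) and SLIRP (0.42) rose. Of all genes, 23.7% rose and 22.5% fell with P2-a8 in Panc10.05, and 17.1% rose and 14.9% fell with P1-a2 in BxPC3.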

How the data were processed

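Raw counts per gene were deposited by the authors for each library, one table per line. Per the labels' protocols, poly(A) RNA libraries were made with a strand-marking kit and sequenced as read pairs on an Illumina instrument. The submitters' processing notes name STAR 2.7.9a, cutadapt 1.16, featureCounts 1.6.3, DESeq2 1.36.0 and GRCh38. The annotation release, strand setting and treatment of reads with several matches are not given in the sources used here. No deposited value was changed. Single values of 1 nuclear member are not reported here, though counts and medians over members include it.

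Each line was fitted alone with all its groups in edgeR 4.0.16 (R 4.3.3): filterByExpr, TMM scaling, the robust quasi-likelihood test and Benjamini-Hochberg adjustment over all genes tested, called at an adjusted p under 0.05. CPM are TMM-scaled, and SE is the log2 change divided by the root of F. Fits by guide and of both induced lines together used the same test. Alternatives were DESeq2 1.42.0, other scalings, no filter, a replicate block, fits of only the groups compared, and leaving out each library or guide. The scripts were tested on simulated data. Tables were handled in Python 3.11.15 with numpy 2.4.6, pandas 2.3.3 and matplotlib 3.10.9; limma 3.58.1 was loaded by edgeR. Levels of the lines are given side by side, and only responses were tested between lines.

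The members and lists were chosen with earlier results of these data known. Named genes were HNF4A, the 13 mitochondrial genes, up to 3 of the largest called rises and falls with a mean of at least 5 CPM and groups that did not overlap, the tissue or copy variants, and up to 2 genes per list and direction; POLRMT, TFAM, SLIRP, NRF1 and the members shown by guide were chosen after their values were seen. Promoter and gene coordinates are from RefSeq GRCh38.p14 and GENCODE GRCh38. Marker and quality lists gave, for P1-a2 against NC in Panc10.05, 3 rises and 2 falls of 6 epithelial markers, 1 rise of 3 tested markers of other cell types, and 1 rise of 4 quality genes.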

Additional observations from a re-analysis of the deposited data

Results flagged for a closer look

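The response to the induced isoform differed between Panc10.05 and BxPC3 for the following named members, by the interaction test of edgeR at an adjusted p under 0.05. Values are the log2 fold change in Panc10.05 minus that in BxPC3. Line, sequencing project and control construct change together, and for P2-a8 the dose does too, so they cannot be told apart.

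For P1-a2 against NC, the nuclear differences were 1.01 for COX4I1, 0.55 for COX7A2L, 0.28 for NDUFB9, -0.33 for NDUFB6 and -0.69 for COX6B2. MT-ND1 (0.73) and MT-ND5 (0.33) were more positive in Panc10.05. MT-CO1 (-0.21), MT-CYB (-0.33), MT-CO2 (-0.35), MT-ND3 (-0.50), MT-ATP6 (-0.53), MT-CO3 (-0.54) and MT-ATP8 (-0.55) were more negative there.

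For P2-a8 against NC, the differences were 0.50 for COX4I1, 0.28 for SDHC, -0.34 for ATP5MG, -0.50 for ATP5MF, -0.64 for COX6B2 and -0.64 for UQCRFS1. Of the mitochondrial genes, MT-ND1 was at 0.51, MT-CYB, MT-CO2 and MT-CO3 each at -0.28, MT-ND3 at -0.35, MT-ATP8 at -0.47 and MT-ATP6 at -0.48. For P1-a2 against P2-a8, the differences were 0.51 for COX4I1, 0.51 for NDUFS8, 0.40 for SDHD, 0.30 for NDUFA11, 0.22 for MT-ND1 and -0.26 for MT-CO3.

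ATP5MC1 in the sgP1 group had 1 library away from the other 3: sgP1J replicate 2 was at 48.7 CPM and the others at 43.2 to 44.0 CPM. Of 66 groups of 4 libraries examined this was the 1 found, and chance alone gives about 1 in 20.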

How the results depend on the processing

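No called result changed direction under the alternatives run. Counts of called members that moved by over 1.5 times were these; the cause was not tested unless fewer libraries were fitted. In BxPC3, P2-a8 against NC gave 1 nuclear member, and 0 under total count scaling, 0 under total counts without the mitochondrial genome, 4 with no filter and 15 with a replicate block, and its mitochondrial count of 0 became 1 with no filter and 2 with the block. With the block, P1-a2 against NC gave 35 nuclear and 8 mitochondrial members and P1-a2 against P2-a8 27 nuclear members, where DESeq2 gave 9. In ASPC1, sgP2 against sgNC gave 4 nuclear members with no filter, 2 with the block, 6 with DESeq2, 6 with only the compared groups fitted and 0 without guide sgP2D or sgP2G, and 2 mitochondrial members with DESeq2 and 1 with only the compared groups. For sgP2 against sgP1 the nuclear counts were 3 with no filter, 2 with the block, 5 with DESeq2, 39 without guide sgP1E and 1 without guide sgP1J, and the mitochondrial count was 1 with the block, with DESeq2 and without guide sgP1E. Over all genes, DESeq2 called 1130 for sgP2 against sgNC and 1270 for sgP2 against sgP1. Without guide sgP1E, 2764 of all genes were called for sgP2 against sgP1. For sgP1 against sgNC without guide sgP1J the counts were 8 nuclear and 1 mitochondrial, where 1242 of all genes were called. For sgDual against sgNC they were 17 nuclear and 0 mitochondrial without guide sgDual2 and 16 nuclear without guide sgDual3, with 2 mitochondrial by DESeq2 and 3 with only the compared groups. For sgDual against sgP1 they were 29 nuclear and 2 mitochondrial without guide sgDual2 and 25 nuclear without guide sgDual3, and for sgDual against sgP2 16 nuclear without guide sgP2G. Fewer of all genes were called too in each of these sgDual comparisons fitted without a guide. The difference between lines for P1-a2 against P2-a8 gave 1 mitochondrial member under total count scaling.

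With the median log2 CPM of members (pseudocount 0.5) in place of sums, the log2 ratio differences were -0.46, 0.016 and -0.48 in Panc10.05 (P1-a2 and P2-a8 against NC, P1-a2 against P2-a8), -0.051 and -0.026 in BxPC3 (P1-a2 against NC and P2-a8), and -0.13 for sgP2 and 0.39 for sgDual against sgNC, 0.55 for sgDual against sgP1 and 0.52 against sgP2, which was 0.31 with mitochondrial rRNA added.

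Leaving out 1 library at a time, the nuclear and mitochondrial counts in Panc10.05 ran from 43 to 51 and 10 to 12 for P1-a2 against NC, 27 to 35 and 6 to 9 for P2-a8 against NC, and 24 to 35 and 7 to 10 for P1-a2 against P2-a8. In BxPC3 they ran from 8 to 18 and 3 to 6, 0 to 0 and 0 to 0, and 4 to 10 and 3 to 7. In ASPC1 the nuclear counts ran from 0 to 0 for sgP1 and 0 to 1 for sgP2 against sgNC, 7 to 31 for sgDual against sgNC, 0 to 10 for sgP2 against sgP1, 36 to 47 for sgDual against sgP1 and 22 to 25 against sgP2, and the mitochondrial count was 0 in every such fit of sgP1 and sgP2, and for sgDual ran from 0 to 1 against sgNC, 3 to 5 against sgP1 and 4 to 4 against sgP2. In Panc10.05 and BxPC3 each such fit left 1 library in a group, and fewer of all genes were called than with all libraries. The log2 ratio difference ran from -0.34 to -0.17, -0.05 to -0.01 and -0.31 to -0.14 in Panc10.05, from -0.16 to -0.05, -0.04 to -0.01 and -0.14 to -0.03 in BxPC3, and in ASPC1 from -0.14 to 0.03 for sgP1, -0.011 to 0.16 for sgP2 and 0.20 to 0.37 for sgDual against sgNC, 0.06 to 0.20 for sgP2 against sgP1, and 0.27 to 0.41 and 0.19 to 0.23 for sgDual against sgP1 and sgP2.

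No label says that a replicate number marks a shared culture or day. Correlations of same-numbered deviations were between -0.0119 and 0.00733 for Panc10.05, between 0.0727 and 0.131 for BxPC3, and between 0.0772 and 0.339 for ASPC1, where all 21 pairs of groups were above 0. With 2 numbers this does not settle whether they pair the libraries. Over all genes, the block raised the calls from 1232 to 2886 for P2-a8 against NC and from 3963 to 5992 for P1-a2 against P2-a8 in BxPC3, and in ASPC1 from 45 to 127 for sgP1 and 581 to 972 for sgP2 against sgNC and from 731 to 1204 for sgP2 against sgP1. Among all genes called, the share that was higher moved from 37.8% to 47.9% (total counts) and 55.4% (DESeq2) for sgP1 and from 48.5% to 59.1% (total counts) for sgP2 against sgNC. Depth limits the members under 5 CPM, NDUFA4L2 above all.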
